A study of Sus scrofa with 3 samples.

Results

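PFKFB3, GYS2, PPP1R3B, PDK4 and PC are 5 genes of glycogen storage, glycolysis and pyruvate use, out of 25322 gene IDs in the deposited tables. They were selected by name from differences already known between these same 3 libraries, and each was matched by its Ensembl gene ID to 1 row in every table. All 5 were among the 13228 expressed IDs, those with at least 1 CPM (a gene's count put on a scale of equal library totals) in at least 1 library. Their levels and folds are therefore given as descriptions, with no test.

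The libraries were made from whole liver of male pigs at 90 days after birth. One came from an Enshi black pig, a local breed of China, another from a Chinese wild boar, and the last from a Large White pig, a commercial breed of European origin. The study is presented as a profile of the developing pig liver, but age, sex and tissue are shared, so breed is the comparison that can be made. With 1 library per breed, breed, animal and library cannot be told apart, and no difference has a replicate check.

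Gene counts summed to 20654571 in the Enshi black table, 20215871 in the Chinese wild boar table and 19982627 in the Large White table, so 1 count was worth 0.0484, 0.0495 and 0.05 CPM in that order. Of 13 hepatocyte markers, 11 had a matched ID, and their summed level was 105744 CPM in Enshi black, 81816 CPM in Chinese wild boar and 58122 CPM in Large White. Of these 11, 10 were expressed. The exception was the ID matched to the abundant liver gene APOA1, which had 2, 2 and 0 counts, so a count near 0 at an ID does not show that the gene was silent.

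The liver stores glucose as glycogen after a meal and releases or makes glucose between meals. Glycogen synthase adds glucose to the chain and is switched on when protein phosphatase 1, held on the glycogen particle by a targeting subunit, removes phosphate from it. PFKFB enzymes set the level of a small sugar phosphate that drives glycolysis and restrains glucose production. Pyruvate, the end product of glycolysis, can be oxidised through pyruvate dehydrogenase, which PDK kinases turn off, or can be carboxylated by pyruvate carboxylase as the entry step of gluconeogenesis.

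The 5 genes fell into 2 patterns by the library in which each was highest. PPP1R3B, GYS2 and PFKFB3 had their highest level in Enshi black, and PDK4 and PC had theirs in Chinese wild boar. The lowest level of GYS2 and PFKFB3 was in Chinese wild boar, that of PPP1R3B and PC in Large White, and that of PDK4 in Enshi black. After TMM scaling, a correction for library composition, the highest library exceeded the lowest by 14.4-fold for PFKFB3, 5.95-fold for PDK4, 5.46-fold for PPP1R3B, 3.97-fold for GYS2 and 2.26-fold for PC. Over all 13228 expressed IDs the median of this quantity, with a small constant added to each level, was 1.68-fold. The 5 genes were selected for their differences, so nothing is read from their place against that median.

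**Figure D1:**
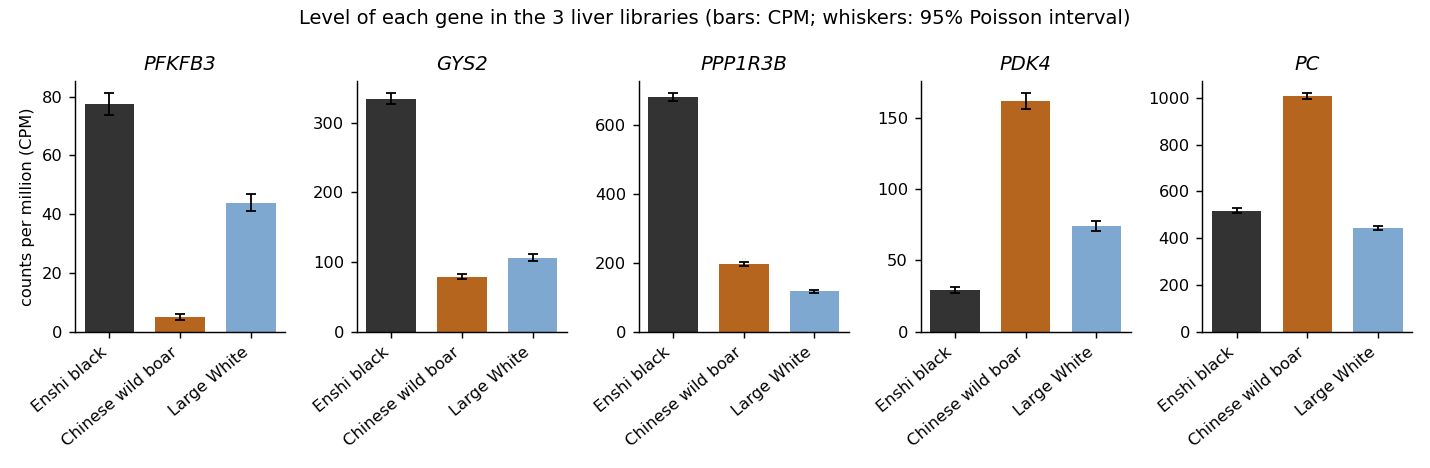
Level of PFKFB3, GYS2, PPP1R3B, PDK4 and PC in CPM (vertical axes, 1 scale per gene) in the Enshi black, Chinese wild boar and Large White libraries. Whiskers are 95% Poisson intervals, which cover counting error only, and no pair of libraries has overlapping whiskers for any gene, with PFKFB3 at 5.05 CPM in Chinese wild boar as the lowest value.

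PPP1R3B encodes the main targeting subunit that brings protein phosphatase 1 to glycogen in liver. Its level was 683 CPM (95% Poisson interval 672 to 694) in Enshi black, 196 CPM (190.3 to 203) in Chinese wild boar and 117 CPM (112 to 122) in Large White. The Enshi black library was far above the other 2, which also differed from each other by more than counting error. In TMM-scaled counts PPP1R3B was 5.46-fold higher (5.22 to 5.70, 95% exact binomial interval) in Enshi black relative to Large White. It was 1.67-fold higher (1.59 to 1.76) in Chinese wild boar than in Large White, and 3.26-fold higher (3.15 to 3.38) in Enshi black than in Chinese wild boar.

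A gene was counted as past the size rule when its whole interval lay at least 2-fold from 1. In Enshi black against Large White, 3 of the 5 genes passed, with PPP1R3B and GYS2 higher and PDK4 lower, where 4.69% of expressed IDs passed as higher, 8.39% as lower and 13.1% in either direction. In Chinese wild boar against Large White, 3 of 5 passed, with PDK4 and PC higher and PFKFB3 lower, where 2.96% of expressed IDs passed as higher, 3.74% as lower and 6.70% in either direction. In Enshi black against Chinese wild boar all 5 passed, with PFKFB3, GYS2 and PPP1R3B higher and PDK4 and PC lower, where 4.03% of expressed IDs passed as higher, 7.10% as lower and 11.1% in either direction. The genes were selected on these contrasts, so nothing is read from their counts against the background.

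GYS2 encodes the liver form of glycogen synthase. It had 335 CPM (327 to 343) in Enshi black, 79.0 CPM (75.2 to 83.0) in Chinese wild boar and 106 CPM (102 to 111) in Large White. Enshi black again stood well above the other 2 libraries, but here Chinese wild boar was below Large White. GYS2 was 2.95-fold higher (2.81 to 3.10) in Enshi black relative to Large White and 3.97-fold higher (3.76 to 4.19) than in Chinese wild boar. Between Chinese wild boar and Large White the difference was 1.34-fold (1.26 to 1.44), lower in Chinese wild boar, and did not pass.

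PFKFB3 encodes an isoform of the bifunctional PFKFB enzymes with strong kinase activity, known from proliferating, immune and endothelial cells as well as from fed liver. Its level was 77.4 CPM (73.6 to 81.3) in Enshi black, 5.05 CPM (4.11 to 6.12) in Chinese wild boar and 43.9 CPM (41.0 to 46.9) in Large White. Chinese wild boar stood apart at the low end, with 102 counts against 1598 in Enshi black and 877 in Large White. PFKFB3 was 8.71-fold lower (7.09 to 10.8) in Chinese wild boar than in Large White, and 74 of the other expressed IDs had a lower log2 fold in that comparison. It was 14.4-fold higher (11.8 to 17.7) in Enshi black than in Chinese wild boar, where 46 expressed IDs had a higher log2 fold. PFKFB3 was selected on these differences, so nothing is read from its ranks. The difference of Enshi black from Large White was 1.65-fold (1.52 to 1.79), higher in Enshi black, and did not pass.

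PDK4 encodes a pyruvate dehydrogenase kinase, known to be induced by fasting, fatty acids and glucocorticoids. It had 29.1 CPM (26.8 to 31.5) in Enshi black, 162 CPM (157 to 168) in Chinese wild boar and 74.2 CPM (70.5 to 78.1) in Large White. The 3 libraries were spread fairly evenly on a log scale, with Large White between the other 2. PDK4 was 2.73-fold lower (2.48 to 3.0) in Enshi black relative to Large White, 2.18-fold higher (2.05 to 2.32) in Chinese wild boar than in Large White, and 5.95-fold lower (5.45 to 6.50) in Enshi black than in Chinese wild boar. It was the gene of the 5 that passed in all 3 comparisons, though its call in Chinese wild boar against Large White was lost with a wider exact interval.

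PC encodes pyruvate carboxylase, a biotin enzyme of the mitochondrion. Its level was 518 CPM (508 to 527) in Enshi black, 1007 CPM (993 to 1021) in Chinese wild boar and 444 CPM (435 to 454) in Large White. Enshi black and Large White were close, and Chinese wild boar was higher than both. PC was 2.26-fold higher (2.21 to 2.32) in Chinese wild boar than in Large White. It was 2.08-fold lower (2.03 to 2.13) in Enshi black than in Chinese wild boar, a call lost with total counts, upper-quartile factors or a wider exact interval. Enshi black and Large White differed by 1.09-fold (1.06 to 1.12).

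**Figure D2:**
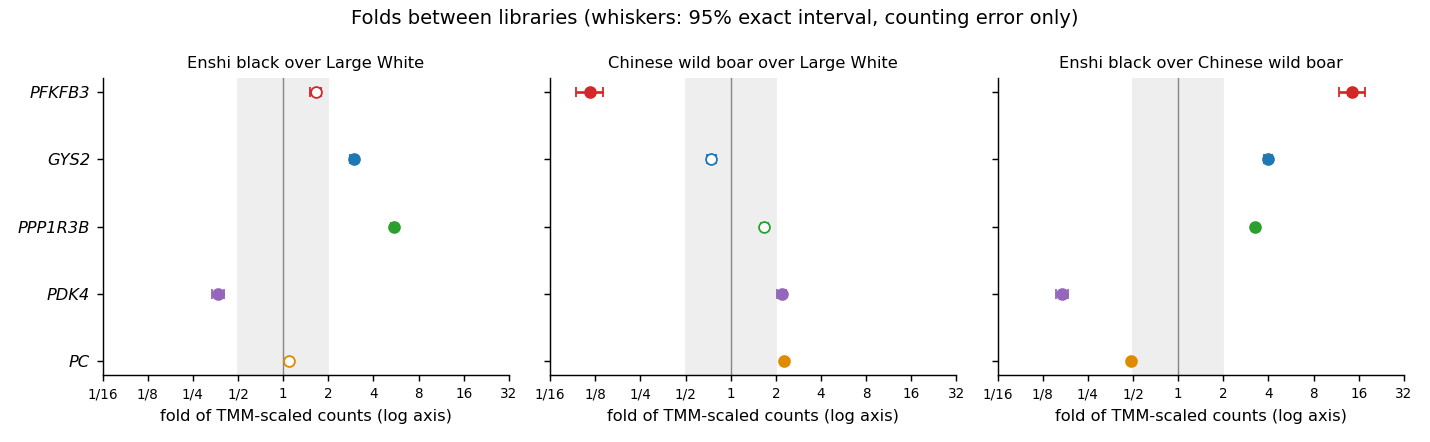
Fold of TMM-scaled counts on a log axis for the 5 genes in each of the 3 comparisons, with 95% exact intervals. Filled points passed the size rule, open points did not, and the grey band spans folds within 2-fold of 1. PFKFB3 has the widest range, at 8.71-fold lower in Chinese wild boar than in Large White and 14.4-fold higher in Enshi black than in Chinese wild boar.

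These folds and intervals cover counting error only, and a spread between animals could not be measured. When variation between animals was assumed, with a coefficient of 0.4, only PFKFB3 still passed, in both comparisons that include Chinese wild boar.

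Ratios between 2 genes within a library do not depend on how libraries are scaled, and the effect of gene length cancels when a ratio is compared between libraries. There were 2.66 counts of PFKFB3 per count of PDK4 (2.42 to 2.93) in Enshi black, 0.0311 (0.0253 to 0.0379) in Chinese wild boar and 0.591 (0.543 to 0.643) in Large White. This ratio was 85.4-fold higher (68.7 to 106) in Enshi black than in Chinese wild boar, with a normal interval on the log scale. GYS2 had 11.5 counts per count of PDK4 in Enshi black, 0.487 in Chinese wild boar and 1.43 in Large White. PPP1R3B had 23.5 counts per count of PDK4 in Enshi black, 1.21 in Chinese wild boar and 1.58 in Large White.

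The pair of glycogen genes kept a narrower ratio. PPP1R3B had 2.04 counts per count of GYS2 (1.98 to 2.1) in Enshi black, 2.49 (2.34 to 2.64) in Chinese wild boar and 1.10 (1.04 to 1.17) in Large White, so Large White had the fewest PPP1R3B counts for its GYS2 counts. PC had 17.8 counts per count of PDK4 in Enshi black, 6.21 in Chinese wild boar and 5.99 in Large White. The PC to PDK4 ratio in Chinese wild boar was 1.04 times that in Large White (0.971 to 1.11), an interval that holds 1, whereas in Enshi black it was 2.97 times that in Large White (2.69 to 3.28).

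**Figure D3:**
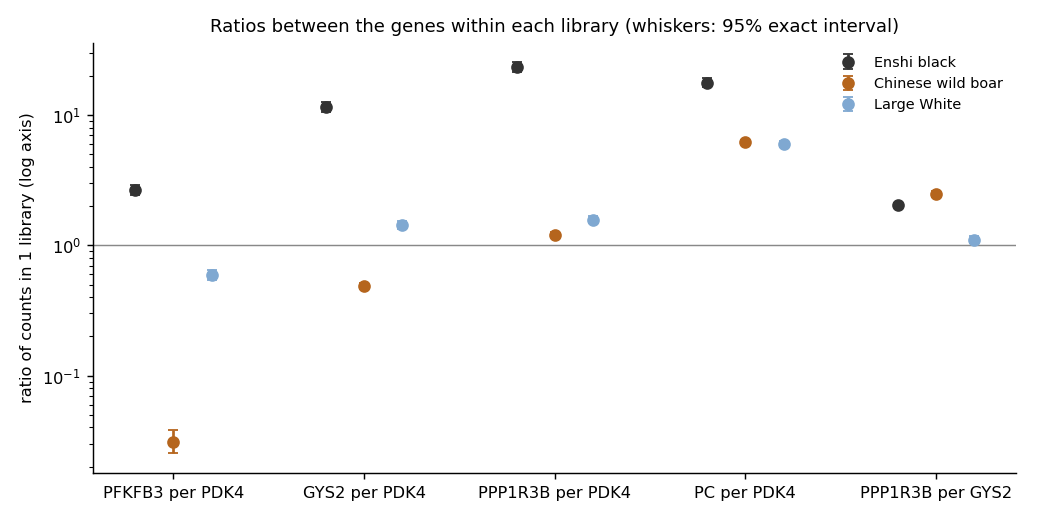
Ratio of the counts of 2 genes within a library (log axis), with 95% exact intervals, for Enshi black, Chinese wild boar and Large White. PFKFB3 per PDK4 spans 2.66 in Enshi black to 0.0311 in Chinese wild boar, while PC per PDK4 is near 6 in Chinese wild boar and Large White and 17.8 in Enshi black.

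Each of the 5 genes has close relatives. Of the other PFKFB genes, PFKFB2 had 5.28 CPM in Enshi black, 3.91 CPM in Chinese wild boar and 5.15 CPM in Large White, and PFKFB4 had 3.92, 2.13 and 3.75 CPM in the same order. Neither passed in any comparison. PFKFB1, known as the liver form in rodents, had 0, 2 and 1 counts at its matched ID.

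GYS1, the glycogen synthase of muscle and most other tissues, had 72.8 CPM in Enshi black, 32.6 CPM in Chinese wild boar and 37.6 CPM in Large White. Its order over the libraries was that of GYS2, with smaller differences. GYS1 was 2.09-fold higher (1.91 to 2.30) in Enshi black than in Chinese wild boar and 1.81-fold higher (1.66 to 1.98) than in Large White, and passed in neither comparison with TMM scaling. With total counts or upper-quartile factors it passed in Enshi black against Chinese wild boar.

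Among the other glycogen-targeting subunits, PPP1R3C had 75.8 CPM in Enshi black, 67.7 CPM in Chinese wild boar and 100.4 CPM in Large White and passed in no comparison. PPP1R3D, at 2.95, 1.39 and 2.95 CPM, and PPP1R3G, at 1.74, 2.77 and 1.95 CPM, did not pass either. PPP1R3F was 7.18-fold lower (3.02 to 20.7) in Enshi black relative to Large White, at 6 counts against 39. PPP1R3A, the muscle subunit, had no count in any library. Of the catalytic subunits, PPP1CC passed, 2.49-fold higher (2.25 to 2.75) in Enshi black relative to Large White. The list of these phosphatase subunits, PPP1R3B included, had 8 expressed genes and median log2 folds of 0.21 in Enshi black against Large White, 0.06 in Chinese wild boar against Large White and 0.49 in Enshi black against Chinese wild boar.

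Of the other pyruvate dehydrogenase kinases, PDK2, the widely expressed form, had 161 CPM in Enshi black, 172 CPM in Chinese wild boar and 100.3 CPM in Large White. PDK1 had 9.30, 3.76 and 8.86 CPM and PDK3 had 3.82, 3.76 and 5.35 CPM in the same order. PDK1 was lowest in Chinese wild boar, the library in which PDK4 was highest, by 2.36-fold (1.79 to 3.13) against Large White, without passing. None of PDK1, PDK2 and PDK3 passed in any comparison.

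The other biotin carboxylases also passed in no comparison with TMM scaling. PCCA, a subunit of propionyl-CoA carboxylase, had 5.66 CPM in Enshi black, 13.1 CPM in Chinese wild boar and 10.6 CPM in Large White, and its partner PCCB had 114, 141 and 79.4 CPM. The methylcrotonyl-CoA carboxylase subunit MCCC1 had 88.7, 92.1 and 81.3 CPM, and MCCC2 had 18.9, 21.0 and 14.8 CPM. ACACA, the acetyl-CoA carboxylase of fatty acid synthesis, had 132, 80.6 and 57.7 CPM, and passed as higher in Enshi black relative to Large White with total counts or upper-quartile factors. PCCA, PCCB, MCCC1 and MCCC2 were, like PC, highest in Chinese wild boar, though by 1.77-fold or less against Large White. In Enshi black against Chinese wild boar PCCA was 2.47-fold lower (1.98 to 3.10), where PC was 2.08-fold lower. PCCB, MCCC1 and MCCC2 were lower there by 1.32-fold or less.

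**Figure D4:**
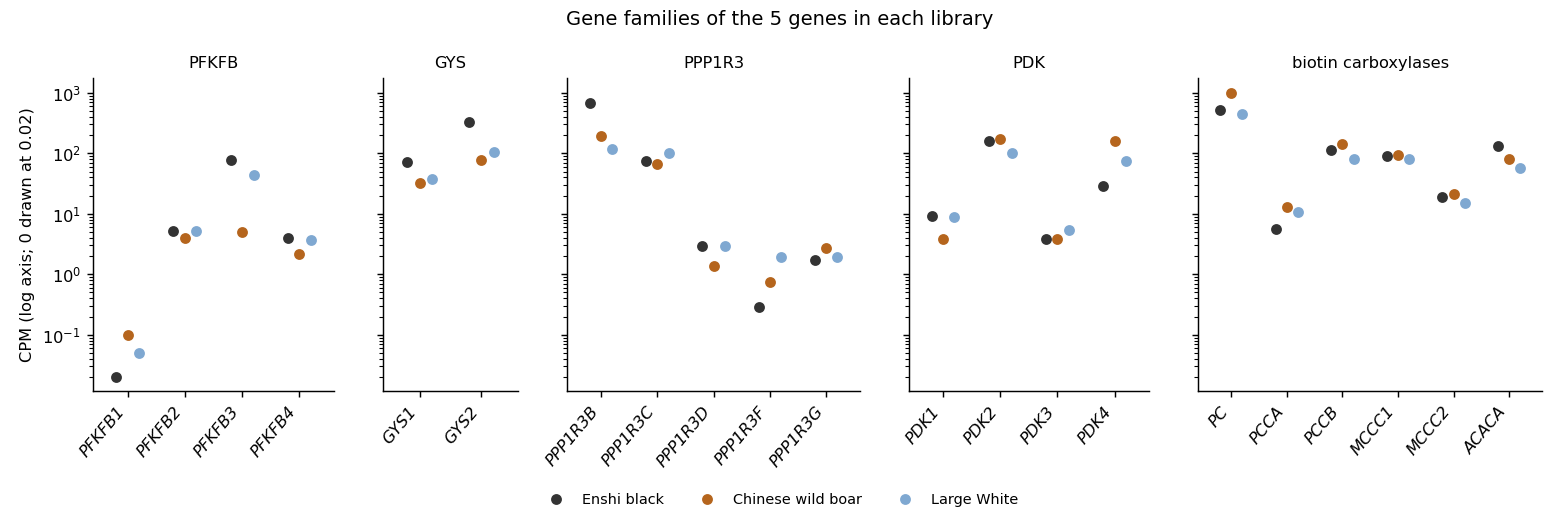
CPM on a log axis of the PFKFB, GYS, PPP1R3 and PDK families and of biotin carboxylases, with a point for each of Enshi black, Chinese wild boar and Large White (a count of 0 is drawn at 0.02). PFKFB3, PPP1R3B and PDK4 are more spread than their relatives, apart from the low-count genes PFKFB1 and PPP1R3F.

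The wider carbohydrate pathway was followed through 9 lists, whose other genes numbered 74 among expressed IDs once the 5 were set aside. Of these, 6 passed as higher and 6 as lower in Enshi black relative to Large White, or 16.2% against 13.1% of all expressed IDs. In Chinese wild boar against Large White 2 passed as higher and 4 as lower, or 8.11% against 6.70%, and in Enshi black against Chinese wild boar 2 as higher and 4 as lower, or 8.11% against 11.1%. Their median log2 folds were 0.11, 0.15 and 0.16 in that order, against 0.01, 0.0 and 0.01 over all expressed IDs.

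Of 7 expressed glycogen synthesis genes, 3 passed as higher in Enshi black relative to Large White and none as lower, with a median log2 fold of 0.86. Over all expressed IDs 4.69% passed as higher and 8.39% as lower there. GYS2 was selected on these differences and is in both the count and the median, so neither is read against those shares. The same holds for every other list that includes any of the 5 genes. Besides GYS2 they were the branching enzyme GBE1 and UGP2, which makes the glucose donor of glycogen. GBE1 had 28.8 CPM in Enshi black, 15.1 CPM in Chinese wild boar and 11.1 CPM in Large White, and was 2.43-fold higher (2.08 to 2.85) in Enshi black relative to Large White. UGP2 had 206 CPM in Enshi black, 136 CPM in Chinese wild boar and 83.9 CPM in Large White, a 2.30-fold difference (2.18 to 2.44) between Enshi black and Large White. In Enshi black against Chinese wild boar only GYS2 of this list passed (median 0.71), and in Chinese wild boar against Large White none did (median -0.21).

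Of the 10 glycogen breakdown genes reported, none passed in any comparison, with medians of -0.01 in Enshi black against Large White, 0.14 in Chinese wild boar against Large White and -0.05 in Enshi black against Chinese wild boar. The liver glycogen phosphorylase PYGL, which releases glucose units from the chain, had 211 CPM in Enshi black, 205 CPM in Chinese wild boar and 192 CPM in Large White.

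**Figure D5:**
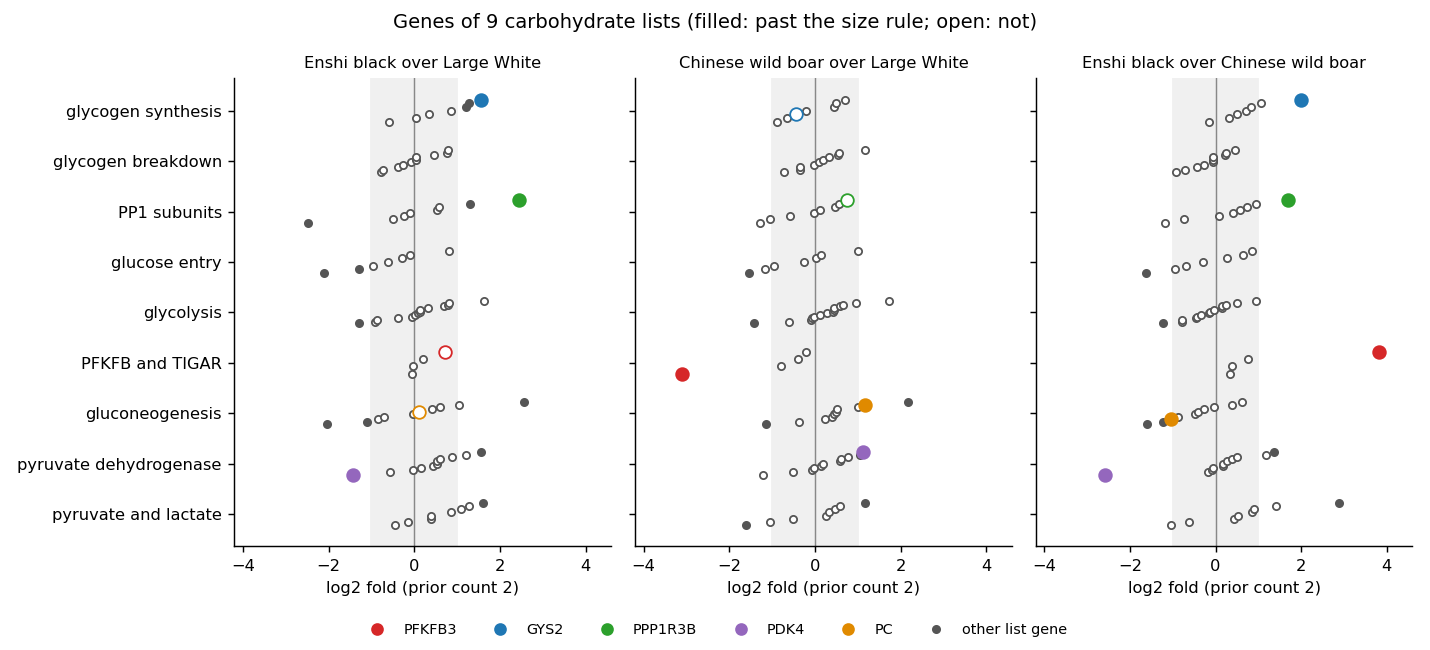
Log2 fold of each expressed gene in 9 carbohydrate lists, for the 3 comparisons; coloured points are the 5 genes, filled points passed the size rule and the grey band spans 1 log2 unit on either side of 0. In glycogen synthesis 3 genes pass as higher in Enshi black relative to Large White, and PFKFB3 lies farthest to the left in Chinese wild boar against Large White.

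The glucose entry list holds transporters and hexokinases. Of its 7 expressed genes reported, 2 passed as lower in Enshi black relative to Large White (median -0.62), 1 as lower in Chinese wild boar than in Large White (median -0.25), and 1 as lower in Enshi black than in Chinese wild boar (median -0.30). The myeloid hexokinase HK3 had 19.2 CPM in Enshi black and 14.8 CPM in Chinese wild boar, against 43.6 CPM in Large White, and was lower than Large White in both. SLC2A8, a hexose transporter of internal membranes, was 4.36-fold lower (3.49 to 5.50) in Enshi black relative to Large White, and SLC2A10, another transporter, 3.165-fold lower (2.35 to 4.31) in Enshi black than in Chinese wild boar.

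Of 14 glycolysis genes, 1 passed in each comparison, as lower, with medians of 0.11 for Enshi black against Large White, 0.35 in Chinese wild boar against Large White and -0.14 in Enshi black against Chinese wild boar. The liver pyruvate kinase PKLR had 42.3 CPM in Enshi black, 92.4 CPM in Chinese wild boar and 96.4 CPM in Large White, and was the lower gene in Enshi black against both. PFKP, the platelet form of phosphofructokinase, was the lower gene in Chinese wild boar against Large White, by 2.69-fold (2.28 to 3.18). Of the 4 expressed genes in the list of PFKFB enzymes and TIGAR, only PFKFB3 passed in any comparison.

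The gluconeogenesis list, to which PC belongs, held 10 expressed genes. In Chinese wild boar against Large White 2 passed as higher, PC and FBP2, and 1 as lower, GPT2 (median 0.47). In Enshi black against Chinese wild boar 3 passed as lower and none as higher (median -0.45), namely PC, PCK1 and MDH2. In Enshi black against Large White 1 passed as higher, FBP2, and 2 as lower, GPT2 and MDH2 (median 0.05).

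PCK1, which converts oxaloacetate made by pyruvate carboxylase on the way to glucose, had 603 CPM in Enshi black, 1317 CPM in Chinese wild boar and 916 CPM in Large White. It was 2.33-fold lower (2.28 to 2.38) in Enshi black than in Chinese wild boar, where PC was 2.08-fold lower. The malate dehydrogenase MDH2 was 3.02-fold lower (2.91 to 3.13) in Enshi black than in Chinese wild boar and 2.14-fold lower (2.06 to 2.22) than in Large White, the second of which was lost with total counts or upper-quartile factors. GPT2, an alanine aminotransferase, had 33.0 CPM in Enshi black, 57.0 CPM in Chinese wild boar and 126 CPM in Large White. FBP2, the muscle fructose bisphosphatase, had 8.42, 5.99 and 1.25 CPM. The liver glucose 6-phosphatase G6PC1 and the liver fructose bisphosphatase FBP1 had no matched ID and were not analysed here.

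The pyruvate dehydrogenase list held 11 expressed genes, of which PDK4 and PDHA1 passed. PDHA1, the catalytic subunit that PDK kinases phosphorylate, had 401 CPM in Enshi black, 146 CPM in Chinese wild boar and 129 CPM in Large White. It was 2.92-fold higher (2.79 to 3.05) in Enshi black relative to Large White, where PDK4 was 2.73-fold lower, and 2.57-fold higher (2.47 to 2.68) in Enshi black than in Chinese wild boar, where PDK4 was 5.95-fold lower. In Chinese wild boar against Large White PDHA1 did not pass, with a 1.13-fold difference (1.08 to 1.20). List medians were 0.53 for Enshi black against Large White, 0.18 in Chinese wild boar against Large White and 0.18 in Enshi black against Chinese wild boar.

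Of 8 genes of pyruvate and lactate transport and exchange, LDHA and SLC16A3 passed. LDHA, a lactate dehydrogenase subunit, had 110.0 CPM in Enshi black, 76.1 CPM in Chinese wild boar and 33.9 CPM in Large White, and passed as higher in both against Large White. SLC16A3, a lactate exporter of glycolytic cells, had 10.02 CPM in Enshi black, 1.19 CPM in Chinese wild boar and 3.80 CPM in Large White. Like PFKFB3 it was lowest in Chinese wild boar, and its calls rest on 24 counts there. SLC16A3 was 7.91-fold higher (5.17 to 12.6) in Enshi black than in Chinese wild boar. It was 3.21-fold lower (2.003 to 5.31) in Chinese wild boar than in Large White, a call that was lost with a wider exact interval. List medians were 0.63, 0.29 and 0.69 for Enshi black against Large White, Chinese wild boar against Large White and Enshi black against Chinese wild boar.

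Next to these routes, 15 citrate cycle genes gave 1 lower, MDH2, in Enshi black against Large White (median 0.20). They gave 1 higher, SUCLG1, in Chinese wild boar against Large White (median 0.37) and 1 lower, MDH2 again, in Enshi black against Chinese wild boar (median -0.37). SUCLG1, a subunit of succinyl-CoA ligase, was 2.34-fold higher (2.26 to 2.41) in Chinese wild boar than in Large White, close to the 2.26-fold of PC. None of 6 pentose phosphate genes passed in any comparison (medians -0.10, 0.05 and -0.09 in the order Enshi black against Large White, Chinese wild boar against Large White, Enshi black against Chinese wild boar). Its most abundant members were TKT, with 293 CPM in Enshi black, 475 CPM in Chinese wild boar and 380.4 CPM in Large White, and TALDO1, with 250.5, 252 and 298 CPM. Of 7 fructose and galactose genes, the fructose kinase KHK passed as 2.17-fold lower (2.09 to 2.25) in Enshi black relative to Large White (median 0.00), a call lost with total counts or upper-quartile factors, and none passed in the other 2 comparisons (medians 0.47 in Chinese wild boar against Large White and -0.62 in Enshi black against Chinese wild boar).

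The labels do not give the feeding state of the pigs at sampling. PDK4 belongs to the list of genes known to be induced in fasted liver, with 10 expressed members. PDK4, itself selected on these differences, is in the counts and medians that follow for this list. In Chinese wild boar against Large White 4 passed as higher and 1 as lower (median 0.70), in Enshi black against Chinese wild boar 5 passed as lower and none as higher (median -1.03), and in Enshi black against Large White 2 passed as lower and none as higher (median 0.54). Of all expressed IDs, 2.96% passed as higher and 3.74% as lower in Chinese wild boar against Large White. These shares were 4.03% and 7.10% in Enshi black against Chinese wild boar, and 4.69% and 8.39% in Enshi black against Large White. They apply to the pathway lists that follow too. FGF21, a fasting hormone of the liver, had 2.90 CPM in Enshi black, 20.2 CPM in Chinese wild boar and 1.10 CPM in Large White. CPT1A, the gate of fatty acid oxidation, had 217 CPM in Enshi black, 364 CPM in Chinese wild boar and 106 CPM in Large White. Both were, like PDK4, highest in Chinese wild boar, but in Large White, where PDK4 was intermediate, both were at their lowest. IGFBP1, a fasting-induced binding protein, ran otherwise, with 18.1 CPM in Enshi black, 115 CPM in Chinese wild boar and 532 CPM in Large White. The remaining genes that passed in this list were PCK1, described above, and, named after their values were seen, ACADL and TAT. ACADL, an acyl-CoA dehydrogenase, had 59.0 CPM in Enshi black, 69.6 CPM in Chinese wild boar and 27.4 CPM in Large White, and TAT, a tyrosine-degrading aminotransferase, had 292, 666 and 505 CPM.

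PDK4 is also a known glucocorticoid target in other mammals. Of 8 expressed genes in that list, 2 passed as higher and 1 as lower in Chinese wild boar than in Large White (median 0.35), 1 as higher and 5 as lower in Enshi black than in Chinese wild boar (median -1.21), and none in Enshi black against Large White (median -0.29). KLF9, a transcription factor induced by glucocorticoids, had 43.3 CPM in Enshi black, 144 CPM in Chinese wild boar and 66.7 CPM in Large White, in the same order of libraries as PDK4. FKBP5, a receptor cochaperone, had 69.9, 145 and 46.7 CPM, and the clock gene PER1 had 117, 273 and 222 CPM. FKBP5 was lower in Enshi black than in Chinese wild boar by 2.21-fold (2.08 to 2.36), which did not pass with total counts or upper-quartile factors. TAT also belongs to this list and was 2.43-fold lower (2.36 to 2.51) in Enshi black than in Chinese wild boar, as was the transcription factor ZBTB16, named after its values were seen, by 2.47-fold (2.18 to 2.81). SGK1, a kinase of the same list, was instead lowest in Chinese wild boar, at 35.3 CPM there against 126 CPM in Enshi black and 79.8 CPM in Large White. So were NR3C1, the receptor gene, and DUSP1, which passed in no comparison. NR3C1 had 38.2 CPM in Enshi black, 19.5 CPM in Chinese wild boar and 24.0 CPM in Large White, and DUSP1 had 200, 140 and 169 CPM.

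Of the genes known to respond to feeding or glucose, 9 expressed ones are reported. In Enshi black against Large White 1 passed as higher and 2 as lower (median 0.73), in Chinese wild boar against Large White none passed (median 0.20), and in Enshi black against Chinese wild boar 1 passed as higher and 1 as lower (median 0.52). FASN, the fatty acid synthase, had 1487 CPM in Enshi black, 493 CPM in Chinese wild boar and 839 CPM in Large White, the order of GYS2 and PFKFB3. ACLY, which supplies its acetyl-CoA, had 102 CPM in Enshi black, 55.5 CPM in Chinese wild boar and 33.3 CPM in Large White, the order of PPP1R3B. PKLR, described above with glycolysis, was lowest in Enshi black. MLXIPL, the carbohydrate response factor ChREBP, named after its values were seen, had 304 CPM in Enshi black, 322 CPM in Chinese wild boar and 597 CPM in Large White, and its call as lower in Enshi black against Large White was lost with total counts, upper-quartile factors or a wider exact interval.

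Insulin and glucagon mediators gave none higher and 3 lower of 14 in Enshi black against Large White (median -0.21). They gave 1 lower in Chinese wild boar against Large White (median -0.23) and 2 lower in Enshi black against Chinese wild boar (median -0.05). IRS1, an adaptor of the insulin receptor, had 24.7 CPM in Enshi black and 26.2 CPM in Chinese wild boar, against 71.0 CPM in Large White. PIK3R1, a regulatory subunit of the kinase downstream of IRS proteins, had 10 counts in Enshi black, 65 in Chinese wild boar and 105 in Large White, and CREBBP, a coactivator of CREB, had 40.9, 122 and 151 CPM. Among 8 energy sensing genes only PRKAA1, a catalytic subunit of AMP-activated kinase, passed, with 19 counts in Enshi black, 82 in Chinese wild boar and 59 in Large White, and its call in Enshi black against Large White was lost with total counts or upper-quartile factors. List medians for energy sensing were -0.05 for Enshi black against Large White, 0.07 in Chinese wild boar against Large White and -0.18 in Enshi black against Chinese wild boar.

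PFKFB3 is a known target of low oxygen, and 14 expressed genes of that list were measured. PFKFB3, itself selected on these differences, is among them and in the medians. For Enshi black against Large White 1 passed as higher, LDHA, and 1 as lower, VEGFA (median 0.39). For Chinese wild boar against Large White 1 passed as higher, LDHA, and 1 as lower, PFKFB3 (median -0.22). For Enshi black against Chinese wild boar 3 passed as higher, PFKFB3, P4HA1 and NDRG1, and 1 as lower, VEGFA (median 0.60). VEGFA, a growth factor of blood vessels, had 70.3 CPM in Enshi black, 161 CPM in Chinese wild boar and 189 CPM in Large White, and P4HA1, a collagen-modifying enzyme, had 52.2, 19.8 and 23.2 CPM. NDRG1, a stress-response gene named here after its values were seen, had 7.21, 2.37 and 5.15 CPM.

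The genes whose 3 values were most like those of each of the 5 were found by distance on the log2 scale, among the 5959 other genes that had a symbol and reached 10 CPM in some library. With 3 libraries such a match is weak: 303 genes lay within 0.5 of PC, 40 of GYS2, 23 of PDK4 and 17 of PPP1R3B. Among the nearest to PFKFB3 were PON3 at a distance of 0.54 and UBD at 0.92. Nearest to PDK4 were IGF1 (0.02), with 5.96 CPM in Enshi black, 33.2 CPM in Chinese wild boar and 15.5 CPM in Large White, then SLC16A13 (0.06) and TMEM209 (0.09). Nearest to PPP1R3B were LCN2, MRC2 and GSTA4 (0.09 to 0.21), to GYS2 ADAM23, S1PR3 and UHMK1 (0.14 to 0.17) and to PC RPS27L, ZDHHC9 and CPPED1 (0.03 to 0.05).

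By gene order in RefSeq's Sscrofa11.1 annotation, a later build than that of the counts, PFKFB3, GYS2 and PPP1R3B overlapped no other gene. PDK4 overlapped ASB4, with 19 counts in Enshi black, 36 in Chinese wild boar and 11 in Large White, and a long noncoding RNA, and PC overlapped LRFN4. ASB4 was counted under its own ID, and reads shared with PDK4 could have been set aside as ambiguous. The long noncoding RNA and LRFN4 had no matched ID. The strand setting of the counting is not given in the sources used here, so their reads cannot be told apart from those of PDK4 and PC. Of 18 nearest expressed neighbours of the 5 genes, 2 passed in Enshi black against Large White, 2 in Chinese wild boar against Large White and 4 in Enshi black against Chinese wild boar, where 13.1%, 6.70% and 11.1% of all expressed IDs passed in that order. PON3, next to PDK4, had 1182 counts in Enshi black, 101 in Chinese wild boar and 1098 in Large White, so it was lowest where PDK4 was highest. DYNC1I1, on the other side of PDK4, had 175, 630 and 344 counts in the same order, the library order of PDK4. PON1 had 2479, 2665 and 963 counts, also highest in Chinese wild boar, and SLC25A13 had 1412, 1284 and 614. ABCC9, near GYS2, had 268 counts in Enshi black, 73 in Chinese wild boar and 78 in Large White, and passed as higher in Enshi black against both. PRKCQ, near PFKFB3, had 92, 25 and 55 counts and passed as higher in Enshi black against Chinese wild boar.

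Liver tissue holds other cell types, and in bulk RNA fewer cells of a type and less RNA per cell cannot be told apart. Markers of T and NK cells, in which PFKFB3 is also known to be expressed, summed to 163 CPM in Enshi black, 63.3 CPM in Chinese wild boar and 156 CPM in Large White over 9 of 12 listed genes with a matched ID, none at 0. Of these 9, 6 passed as lower in Chinese wild boar than in Large White, where 3.74% of expressed IDs did. Neutrophil markers summed to 24.5 CPM in Enshi black, 10.7 CPM in Chinese wild boar and 74.2 CPM in Large White over 4 of 8, none at 0. Endothelial markers summed to 878 CPM in Enshi black, 732 CPM in Chinese wild boar and 1049 CPM in Large White over 6 of 12, none at 0. KDR, at 176, 60.4 and 113 CPM in the same order, STAB1, at 194, 165 and 488 CPM, and TEK were lowest in Chinese wild boar. PECAM1, LYVE1 and ENG were instead lowest in Large White. The endothelial list medians were -0.21 in Chinese wild boar against Large White and 0.09 in Enshi black against Chinese wild boar. B and plasma cell markers summed to 21.9 CPM in Enshi black, 17.0 CPM in Chinese wild boar and 20.02 CPM in Large White over 5 of 8, none at 0. Of these 5, 4 passed as higher in Enshi black against Chinese wild boar (median 2.19) and 3 against Large White (median 1.78), while POU2AF1, at 1.94, 13.2 and 8.61 CPM, passed as lower in both. Over all expressed IDs 4.03% and 4.69% passed as higher in those comparisons, and 7.10% and 8.39% as lower. The sums of these 4 cell types were each lowest in Chinese wild boar, like PFKFB3, and their part in its value was not tested.

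Macrophage markers summed to 709 CPM in Enshi black, 765 CPM in Chinese wild boar and 863 CPM in Large White (6 of 13 matched, none at 0). Most of each sum was C1QA, at 573 CPM in Enshi black, 506 CPM in Chinese wild boar and 510 CPM in Large White. Of the 6, 4 passed as lower in Enshi black against Large White, where 8.39% of expressed IDs did, with a median log2 fold of -1.65. Among them was CSF1R, at 16.3 CPM in Enshi black, 54.5 CPM in Chinese wild boar and 109 CPM in Large White.

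Stellate cell and fibroblast markers summed to 1123 CPM in Enshi black, 581 CPM in Chinese wild boar and 348 CPM in Large White (8 of 10, with 1 at 0 in Large White), the order of PPP1R3B. Most of each sum was COL3A1, and 4 of the 7 expressed markers passed as higher in Enshi black against Large White (median 1.82), where 4.69% of expressed IDs did. The hepatocyte sum given above runs in the same order, but its largest part was ALB, at 69492 CPM in Enshi black, 52507 CPM in Chinese wild boar and 24749 CPM in Large White. Some other hepatocyte markers ran the other way, such as FGB, at 632, 2296 and 2680 CPM, and the list's median log2 folds were 0.20 in Enshi black against Large White, -0.07 in Chinese wild boar against Large White and -0.07 in Enshi black against Chinese wild boar. The part of either cell type in the glycogen genes was not tested.

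Cholangiocyte markers (5 of 7) and erythroid markers (3 of 6), with none at 0, summed to 35.1 and 46.9 CPM in Enshi black, to 28.4 and 182 CPM in Chinese wild boar, and to 32.7 and 103 CPM in Large White. Muscle and fat markers (3 of 10), with 1 at 0 in Chinese wild boar, summed to 6.92 CPM in Enshi black, 8.85 CPM in Chinese wild boar and 5.10 CPM in Large White.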

How the data were processed

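Paired-end Illumina HiSeq reads of liver RNA came from 3 male pigs, per the labels' protocols, which describe no molecular identifiers and no pooling. The authors deposited whole-number read counts per Ensembl gene ID, 1 table per library, with no normalization. The build Sscrofa10.2 and the tools HTSeq 0.6.1, TopHat2 2.1.0 and edgeR 3.16.3 are named in the submitters' processing notes. Not given in the sources used here were the annotation release, strand setting and handling of multiply aligned reads. Such reads could be lost from genes with close copies, and the PFKFB and PDK families are uncertain to that extent.

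Each table's 5 rows that name no gene were set aside. Over gene, no-feature and ambiguous reads together, those with no feature were 19.0% in Enshi black, 18.9% in Chinese wild boar and 22.0% in Large White, and ambiguous ones 1.89%, 2.49% and 2.18%. Levels are CPM over the remaining IDs. Folds use TMM factors (1.045, 0.979 and 0.978) from edgeR 4.0.16 in R 4.3.3, with a 95% Clopper-Pearson interval on the split of 2 counts (Python 3.11.15, numpy 2.4.6, pandas 2.3.3, scipy 1.17.1). Figures were drawn with matplotlib 3.10.9. With 1 library per breed there are no residual degrees of freedom, so neither a test across animals nor a p-value is given. Log2 folds of lists use a prior count of 2. Intervals and calls were tested on simulated counts with counting error only, scaled by the totals they were drawn with. That test covers neither variation between animals nor estimated scaling factors. Of 310 listed symbols, 228 matched a gene ID. A few genes are not reported here and were left out of the lists and their counts. No genome of the build was used, so no coordinates or sequences are given.

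The 5 genes and the lists were chosen with earlier results of these data known. By rule, the text names up to 4 passing members per pathway list (or up to 2 abundant ones where none passed), the families of the 5 genes and, for each of the 5, the 3 genes of nearest pattern. Alternatives were DESeq2 1.42.0 size factors, total counts, upper-quartile factors, TMM of each pair of libraries alone, other filters and bounds, a wider exact interval and assumed variation between animals.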

Additional observations from a re-analysis of the deposited data

How the results depend on the processing

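No paired analysis was possible because each breed has 1 library. No direction of the 5 genes was reversed in any of the 9 alternatives that apply to them, and 107 of 135 results kept their side of the size rule. Only the alternatives that rescale the libraries could reverse a direction, because the others leave the fold unchanged. Folds are given as a ratio of the comparison's 2 libraries, in the order named. With a coefficient of variation of 0.2 assumed between animals, calls were lost in Enshi black against Large White for GYS2 (2.95) and PDK4 (0.367), in Chinese wild boar against Large White for PDK4 (2.18) and PC (2.26), and in Enshi black against Chinese wild boar for PPP1R3B (3.26) and PC (0.481). With 0.4, PPP1R3B (5.46) against Large White and GYS2 (3.97) and PDK4 (0.168) against Chinese wild boar were lost in Enshi black too, which left PFKFB3. A near bound of 4 lost all calls but those of PFKFB3, of PPP1R3B in Enshi black against Large White and of PDK4 in Enshi black against Chinese wild boar, and a near bound of 1.5 added PFKFB3 (1.65) in Enshi black against Large White and PPP1R3B (1.67) in Chinese wild boar against Large White. A wider exact interval lost PDK4 in Chinese wild boar against Large White and PC in Enshi black against Chinese wild boar. PC in the last comparison was also lost with total counts (0.514) and upper-quartile factors (0.509).

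Expressed IDs past the size rule numbered 1731 in Enshi black against Large White, 886 in Chinese wild boar against Large White and 1472 in Enshi black against Chinese wild boar. In the same order they were 938, 388 and 825 with variation of 0.2, 532, 178 and 476 with 0.4, 3503, 2120 and 2976 with a near bound of 1.5, 594, 201 and 507 with 4, and 990, 546 and 820 with a filter of 10 CPM, where fewer IDs are tested. The wider interval left 585 in Chinese wild boar against Large White. DESeq2 size factors, TMM of each pair and no filter changed none of these counts by over 1.5 times. A further 56 genes of the lists and families, whose alternatives were added after the data were seen, had 57 calls and no reversal. For these genes too only rescaling could have reversed a direction. The wider interval lost 13 of those calls, namely GBE1, HK3, MLXIPL, PPP1R3F and PRKAA1 in Enshi black against Large White, GPT2, KLF9, LDHA, SGK1 and SLC16A3 in Chinese wild boar against Large White, and FKBP5, NDRG1 and SLC2A10 in Enshi black against Chinese wild boar. Of the 57, 5 were lost with total counts, 5 with upper-quartile factors, 41 with variation of 0.2, 51 with 0.4 and 49 with a near bound of 4. Variation of 0.4 left 0, 0 and 1 of the 12, 6 and 6 other carbohydrate genes that had passed. Scaled by total counts, expressed IDs had a median log2 fold of 0.10 in both comparisons of Enshi black, against 0.01 with TMM. Calls with total counts were made without removing that shift, so those lost or gained in comparisons of Enshi black include it. Counting depth limits PPP1R3F, PIK3R1 and PRKAA1, with under 20 counts in Enshi black, and differences between animals were not measured.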
